A study of Mus musculus with 48 samples.

Results

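Isl1 was at 10 FPKM or more in 22 of 48 mouse single cells and below 1 FPKM in 23, and the other genes of these 45 cells are described here by that division. FPKM counts fragments relative to transcript length and to the mapped fragments of the cell. The 3 cells between the limits, at 6.05, 7.45 and 9.34 FPKM, were left out of both sides. The cells were chosen by their measured Isl1 level, so the values of Isl1 itself are a description. In the 22 Isl1-expressing cells it was between 12.9 and 153 FPKM with a median of 39.2. The 3 lowest of them were at 12.9, 13.3 and 13.7 FPKM. Of the 23 cells without Isl1, 20 were listed at 0 and 3 were above it, at 0.189, 0.193 and 0.812 FPKM. The sides are therefore separated by the limits of 10 and 1 FPKM, with 3 cells between, as the plot of Isl1 by cell shows. Across the upper limit the values ran on, at 9.34 and then 12.9 FPKM. No cell lay between 0.812 and 6.05 FPKM.

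**Figure D1:**
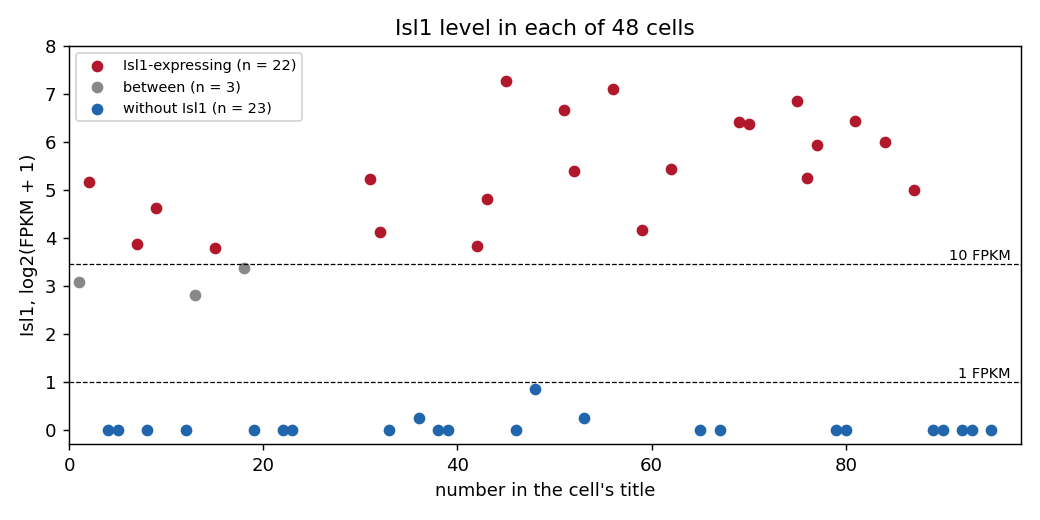
Isl1 level, as log2(FPKM + 1), in each of 48 cells against the number in the cell's title. Dashed lines mark the limits of 10 and 1 FPKM; 22 cells lie above the upper line, 23 below the lower line and 3 between them.

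Isl1 encodes a LIM-homeodomain transcription factor. It marks progenitors of the second heart field, which add the outflow tract, the right ventricle and much of the atria to the heart tube, and it is also known from motor and sensory neurons, pancreatic islets and the hindlimb field. Its homeodomain, like many others, binds sites with a TAAT core, and its LIM domains bind the cofactors Ldb1 and Ldb2. In the embryo it is found in splanchnic mesoderm after cells have left the primitive streak, and many of these cells descend from progenitors that expressed Mesp1 for a short time.

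All 48 cells came from 1 condition. They derive from mouse embryonic stem cells of strain 129P2/OlaHsd that carry an inducible Mesp1 gene, and were grown as embryoid bodies, which are floating aggregates of differentiating cells. Doxycycline at 500 ng/ml switched Mesp1 on between day 2.25 and day 3.25. On day 4, live cells without propidium iodide staining were sorted and caught singly in a Fluidigm C1 microfluidic device. Both sides share all of this: genotype, strain, induction and time, and no cell without induction was analysed here. The labels name the cells induced mesoderm and give no separate cultures, so 45 cells stand as parts of 1 sample. Cells are not replicates of a condition, and no p-value or error across cells is given.

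Isl1 lies at chr13:116298281-116309689 on the minus strand, Hoxb1 at chr11:96365752-96368256, Aldh1a2 at chr9:71215789-71296243 and T at chr17:8434423-8442496 on the plus strand (GRCm38, GENCODE M21). The 250 bases before the RefSeq start of these genes (GRCm38.p6) are printed 5′ to 3′ on the gene's strand, since Hoxb1 and Aldh1a2 were higher and T lower beside Isl1; capitals mark TAAT, the core bound by many homeodomains. TAAT was searched on both strands.
Isl1, chr13:116309689-116309938, minus strand: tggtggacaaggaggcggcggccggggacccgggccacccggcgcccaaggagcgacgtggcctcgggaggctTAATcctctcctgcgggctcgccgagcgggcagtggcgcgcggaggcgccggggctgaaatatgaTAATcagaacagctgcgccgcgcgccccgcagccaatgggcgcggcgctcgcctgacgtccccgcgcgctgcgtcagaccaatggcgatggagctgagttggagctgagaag
Hoxb1, chr11:96365508-96365757, plus strand: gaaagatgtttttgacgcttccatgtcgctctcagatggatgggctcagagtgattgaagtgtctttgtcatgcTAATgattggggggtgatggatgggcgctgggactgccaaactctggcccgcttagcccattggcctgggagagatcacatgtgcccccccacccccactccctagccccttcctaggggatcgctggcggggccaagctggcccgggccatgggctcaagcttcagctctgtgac
Aldh1a2, chr9:71215539-71215788, plus strand: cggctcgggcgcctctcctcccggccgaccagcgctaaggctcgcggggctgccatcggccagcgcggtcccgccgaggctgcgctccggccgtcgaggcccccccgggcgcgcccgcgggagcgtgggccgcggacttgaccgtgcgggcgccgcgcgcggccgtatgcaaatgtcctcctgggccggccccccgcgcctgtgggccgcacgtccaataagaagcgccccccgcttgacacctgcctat
T, chr17:8434173-8434422, plus strand: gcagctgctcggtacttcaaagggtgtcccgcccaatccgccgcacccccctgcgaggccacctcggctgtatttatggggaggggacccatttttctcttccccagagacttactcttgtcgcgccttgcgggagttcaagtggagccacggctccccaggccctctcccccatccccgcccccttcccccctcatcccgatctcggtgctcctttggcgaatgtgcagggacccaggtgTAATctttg
The windows held 2, 1, 0 and 1 matches, and 54.9% of 32851 such windows over all genes held at least 1. A match is a description of these letters and says nothing of binding.

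Over all title numbers, the sides were much alike in depth of detection. A median of 6204 genes (4788 to 7010) reached 1 FPKM in Isl1-expressing cells, against 6353 (4878 to 7002) in cells without Isl1. Rows of short RNAs, whose FPKM can become very large because of their length, held a median of 17.6% of the summed FPKM (1.72 to 90) against 11% (1.99 to 96.6), and more than 50% in 7 against 4 cells. Of 7 cells with under 5189 detected genes, 2 were Isl1-expressing and 5 were without Isl1. The number in the cell titles was up to 48 in 9 Isl1-expressing cells and 13 without Isl1, and above 48 in 13 and 10. The labels do not say what that number stands for. All 7 cells of few detected genes had title numbers from 84 to 95. They were thus 2 of the 13 and 5 of the 10 cells above 48. Splitting by title number and leaving out these cells are therefore not separate checks. Because several differences below were not of the same size at low and high title numbers, the values at low (up to 48) and high (above 48) title numbers, low first, are given beside each gene whose printed difference was 1 or more in size over all cells or in either range, or changed sign between them. Over 10423 genes, the median Spearman rho between 2 cells was 0.56 within the expressing side, 0.55 within the side without Isl1 and 0.56 between sides.

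Difference here always means the mean of log2(FPKM + 1) in the 22 Isl1-expressing cells minus the mean in the 23 cells without Isl1, a scale that understates the change of low genes. Detected means 1 FPKM or more. A gene was measured when it was detected in at least 5 of the 45 cells, and it was called when the difference was 2 or more, a factor of 4 on this scale. A gene detected in 5 or more cells of 1 side and under 5 of the other passed through that side alone. The direction of such a gene partly came with its inclusion. Of 10423 genes, 8 (0.0768%) were called higher in Isl1-expressing cells and 11 (0.106%) lower, and the median difference over all genes was -0.01. These counts describe the 45 cells and do not show that more genes differed than would without any relation to Isl1. At a size of 1 or more, 238 genes (2.28%) were higher and 269 (2.58%) lower. Of the 8 called higher, 3 were rows of short RNAs (Snord104, Mir3470a and Snord47) and are not described further. The other 5 were Aldh1a2, Hoxb1, Crabp1, Hand1 and Herc4. The 11 called lower were Krt18, Crip2, Pgap2, Tdgf1, T, Akr1e1, Mixl1, Upp1, Eci1, Cdk2ap2 and Slc2a3. Of these 16 genes, 15 had the same sign in both ranges of title numbers and 13 a size of 1 or more in both.

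The levels of the leading genes on both sides are shown per cell, and every gene shown overlaps between the sides. For Dhrs3 the overlap lies at 0 alone. For the other genes, single cells of each side reached levels held by the other.

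**Figure D2:**
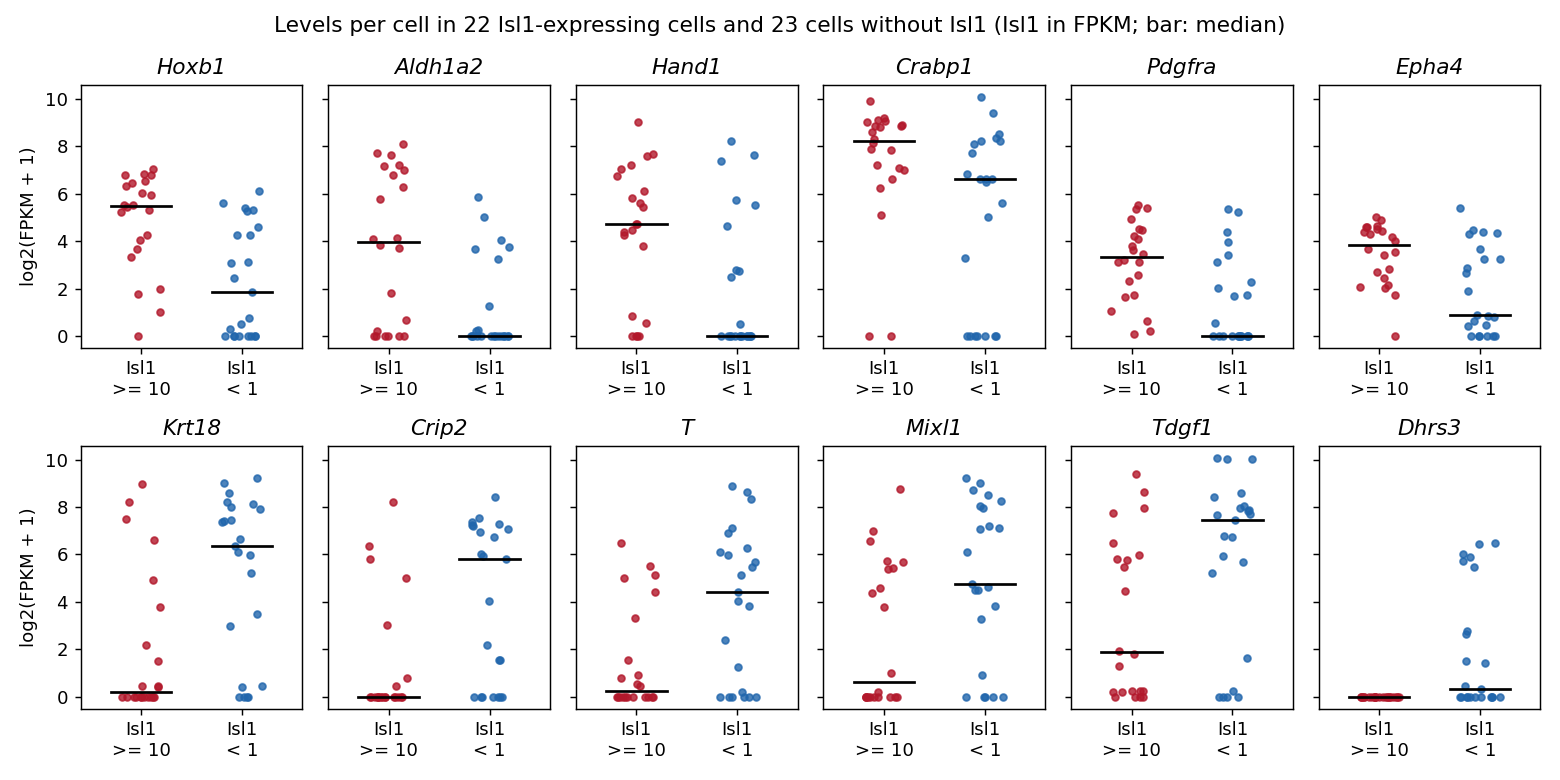
Levels per cell as log2(FPKM + 1) for 12 genes, with 22 Isl1-expressing cells in red, 23 cells without Isl1 in blue and the median as a bar. The upper row holds genes that were higher in the Isl1-expressing cells, such as Hoxb1 (median 44 against 2.64 FPKM), and the lower row genes that were lower, such as Krt18 (0.164 against 81.2 FPKM).

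Hoxb1 had the largest difference among the listed genes of the second heart field. It is a homeobox gene of the hindbrain and of posterior progenitors of the second heart field. Its level ran from 0 over a median of 44 to 132 FPKM in Isl1-expressing cells and from 0 over 2.64 to 68.0 FPKM in cells without Isl1. It was detected in 20 of 22 cells (90.9%, exact Clopper-Pearson 95% interval 70.8 to 98.9) against 12 of 23 (52.2%, 30.6 to 73.2). The difference was 2.51, or 5.69-fold, with 2.2 at title numbers up to 48 and 3.14 above 48. Most Isl1-expressing cells thus lay above the median of the other side, although both sides held cells at 0. Such intervals cover counting error only.

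Other Hox genes had smaller differences. Of 23 genes of the Hox and TALE list, which also holds the Meis and Pbx cofactors of Hox proteins, 14 were detected often enough to be measured. In it 1 gene was called higher and none lower, 3 were higher by 1 or more, 12 of 14 lay above 0, and the median was 0.48. The other genes past 1 were Pbx3 (1.20, 11 against 8 cells) and Meis2 (1.06, 18 against 14 cells), both TALE homeobox genes. At low and high title numbers Pbx3 was at 2.37 and 0.18, and Meis2 at 0.52 and 1.53. Hoxb2 and Hoxb3, the neighbours of Hoxb1 in its cluster, were at 0.12 and 0.37. Their signs differed between low and high title numbers, with -0.05 and 0.38 for Hoxb2 and 0.74 and -0.08 for Hoxb3. Hoxa4, Hoxa5, Hoxb5, Hoxc4 and Hoxd3 did not reach 1 FPKM in any cell.

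Apart from Isl1 and the short RNA rows, Aldh1a2 had the largest positive difference. It encodes the dehydrogenase that makes retinoic acid in embryonic mesoderm. Its level in Isl1-expressing cells ran from 0 over a median of 14.7 to 276 FPKM, and without Isl1 from 0 over a median of 0 to 57.3 FPKM. Detection was 14 of 22 cells (63.6%, interval 40.7 to 82.8) against 7 of 23 (30.4%, 13.2 to 52.9). The difference was 2.55, with 1.79 and 3.23 at the low and high title numbers. A share of the Isl1-expressing cells, 8 of 22, did not reach 1 FPKM.

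Genes that handle retinoic acid went different ways. Crabp1, a cytoplasmic protein that binds retinoic acid, was detected in 20 against 16 cells with medians of 299 and 96.8 FPKM, a difference of 2.32. Its difference was 1.16 at title numbers up to 48 and 3.65 above 48, and 1.32 without the 7 cells of few detected genes, so it falls below the call there. Dhrs3, which turns retinaldehyde back into retinol and so lowers retinoic acid, was listed at 0 in all 22 Isl1-expressing cells. For a count of 0 of 22 cells the exact Clopper-Pearson 95% interval reaches 15.4%, and the limit of 3 counts is 13.6%. Without Isl1, 10 of 23 cells held Dhrs3 at 1 FPKM or more (43.5%, 23.2 to 65.5), and the highest was at 88.0 FPKM. Its difference of -1.96 missed the size of the call, with -1.37 and -2.73 at the low and high title numbers. Dhrs3 was measured through the side without Isl1 alone, so its direction came with its inclusion.

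Cyp26a1, which degrades retinoic acid, was at -1.38 over all cells, but at 0.75 at title numbers up to 48 and -3.05 above 48. Rara, a retinoic acid receptor, was detected in 4 against 11 cells (difference -0.45), while Rarb was detected in 5 against 1 (0.50). Of 16 genes of the pathway, 12 were measured: 2 were called higher, none lower, and 2 each were past 1 in either direction, with a median of -0.10. Summed over the list, the level was 70.3 to 1181 FPKM in Isl1-expressing cells (median 555) and 65.7 to 1219 FPKM without Isl1 (median 269.9). The list as a whole overlapped, and its 2 called members are the enzyme and the binding protein above.

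Hand1 is a basic helix-loop-helix factor of lateral plate and extraembryonic mesoderm and of the left ventricle. In Isl1-expressing cells it ran from 0 over a median of 25.3 to 523 FPKM, and in cells without Isl1 from 0 over a median of 0 to 297.5 FPKM. It was detected in 16 of 22 cells (72.7%, interval 49.8 to 89.3) against 9 of 23 (39.1%, 19.7 to 61.5). The difference was 2.29, with 1.72 and 2.90 at the low and high title numbers, and 1.8 without the cells of few detected genes. Isl1-expressing cells therefore held Hand1 more often, while the ranges of the sides overlapped.

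Heart progenitor genes were mostly above 0, though few were past the size of a call. Of 24 genes listed for the second heart field, 19 were measured: 1 was called higher (Hoxb1), none lower, 3 were higher and 1 lower by 1 or more, 14 lay above 0, and the median was 0.45. Mef2c, a MADS-box factor of cardiac muscle progenitors, was detected in 11 against 4 cells (50%, interval 28.2 to 71.8, against 17.4%, 4.95 to 38.8) with a difference of 1.16. The difference of Mef2c was 0.43 and 1.73 at the low and high title numbers, 0.74 without the cells of few detected genes and 2.0 without the cells of over 50% short RNA. Foxc1, a forkhead factor of pharyngeal and paraxial mesoderm, was detected in 13 against 5 cells with a difference of 1.14, and 1.07 and 1.37 at the low and high title numbers. Wnt5a, a noncanonical Wnt ligand, was at 0.97 (18 against 11 cells, 0.25 and 1.72 by title number), and Fgf10, a growth factor of this field, at 0.84 (20 against 16). Nrg1, a ligand of ErbB receptors, was the member past 1 in the lower direction, at -1.02 with 3 against 9 cells and -1.0 and -1.03 by title number. Tbx1, Msc and Sema3c did not reach 1 FPKM in any cell, so these markers of the second heart field and outflow tract could not be compared.

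Of 20 genes listed for the first heart field, 16 were measured, with Hand1 called higher, 2 higher by 1 or more, 12 above 0 and a median of 0.50. The second gene past 1 was Id2, an inhibitor of basic helix-loop-helix factors, at 1.74 (20 against 17 cells), with 0.15 at title numbers up to 48 and 3.38 above 48. Gata4 and Gata6, zinc finger factors of cardiac mesoderm and endoderm, were at 0.39 (17 against 14 cells) and -0.01 (15 against 15). Gata6 was at -0.06 and 0.24 by title number, and Gata4 at -0.04 without the cells of over 50% short RNA. Tbx5, a T-box factor of the first heart field, was detected in 4 against 2 cells, and Nkx2-5 was at 0 in every cell. Of 15 contractile genes only 4 were measured, and Myh6, Myh7, Ttn, Nppa, Ryr2 and Smyd1 did not reach 1 FPKM. Of the 4 measured, Tpm1 was detected in 22 cells on each side, Myl7 in 7 against 8 and Myl4 in 5 against 2, all above 0. Tnni1, in 4 against 8 cells, was lower by 1 or more. Actc1, in 0 against 4 cells, was not measured. Apart from Tpm1, genes of contracting heart muscle were thus below detection in most cells of both sides.

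Pdgfra, the receptor of nascent and cardiac mesoderm, was above 0 in all 22 Isl1-expressing cells, from 0.051 over a median of 9.11 to 44.5 FPKM. In cells without Isl1 it ran from 0 over a median of 0 to 39.8 FPKM, with 12 of 23 listed at 0. It was detected in 19 of 22 (86.4%, interval 65.1 to 97.1) against 10 of 23 (43.5%, 23.2 to 65.5), with a difference of 1.68 and 1.01 and 2.24 by title number. Epha4, an ephrin receptor of segmenting and migrating mesoderm, was detected in 21 of 22 (95.5%, 77.2 to 99.9) against 11 of 23 (47.8%, 26.8 to 69.4), with a difference of 1.53 and 1.47 and 1.86 at the low and high title numbers. Both missed the size of the call and were detected in more of the Isl1-expressing cells. Kdr, the VEGF receptor of hemangiogenic and cardiac mesoderm, was at 0.36 with 12 against 8 cells. Over 30 receptors and guidance genes, 27 were measured, none was called, 2 each passed 1 in either direction and the median was -0.15.

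Mesp1, the induced gene, was detected in 17 of 22 Isl1-expressing cells (77.3%, interval 54.6 to 92.2) and in 12 of 23 without Isl1 (52.2%, 30.6 to 73.2). Its level ran from 0 over a median of 23.5 to 254 FPKM against 0 over 3.58 to 73.3 FPKM, a difference of 1.82 that was 1.54 and 2.05 at the low and high title numbers. Transcripts of the inducible copy and of the endogenous gene cannot be told apart in the table. Its paralogue Mesp2 was at 0.80 with 8 against 4 cells.

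Mesp1 thus stood on the positive side while most other genes of the primitive streak did not. Of 22 genes listed for streak and nascent mesoderm, 19 were measured: none was called higher, 3 were called lower, 1 was higher and 7 were lower by 1 or more, and the median was -0.55. The median was 0.041 at title numbers up to 48 and -1.43 above 48, so its direction rests on the high title numbers. T, or Brachyury, the T-box factor of the streak, ran from 0 over a median of 0.184 to 89.4 FPKM in Isl1-expressing cells and from 0 over 20.1 to 473 FPKM without Isl1. It was detected in 7 of 22 (31.8%, interval 13.9 to 54.9) against 16 of 23 (69.6%, 47.1 to 86.8). The difference was -2.39, with -0.41 and -4.60 at the low and high title numbers and -1.26 without the cells of few detected genes. T is therefore a call that does not stand at the low title numbers or without those cells.

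Mixl1, a homeobox gene of the streak and of mesendoderm, was detected in 11 against 17 cells with medians of 0.582 and 26.3 FPKM. Its difference was -2.28, with -0.47 and -3.37 at the low and high title numbers. Tdgf1 (Cripto), a co-receptor of Nodal, was detected in 13 against 18 cells with medians of 2.66 and 177 FPKM and a difference of -2.46, with -1.09 and -3.23 at the low and high title numbers. Eomes, a T-box factor that acts upstream of Mesp1, was at -1.64 (14 against 18 cells), and at -0.13 and -2.81 at the low and high title numbers. Fgf5, a ligand of the epiblast, was at -1.68 with 4 against 10 cells and differed little between the ranges, at -1.57 and -1.77. Nodal, by contrast, was at -0.01 with 4 cells on each side, and at 0.45 and -0.39 by title number. In Mixl1, Tdgf1, Eomes and Fgf5 the larger difference was at title numbers above 48, while Nodal changed sign. The cells of few detected genes all had title numbers above 48, and what else moves with the title number was not tested.

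**Figure D3:**
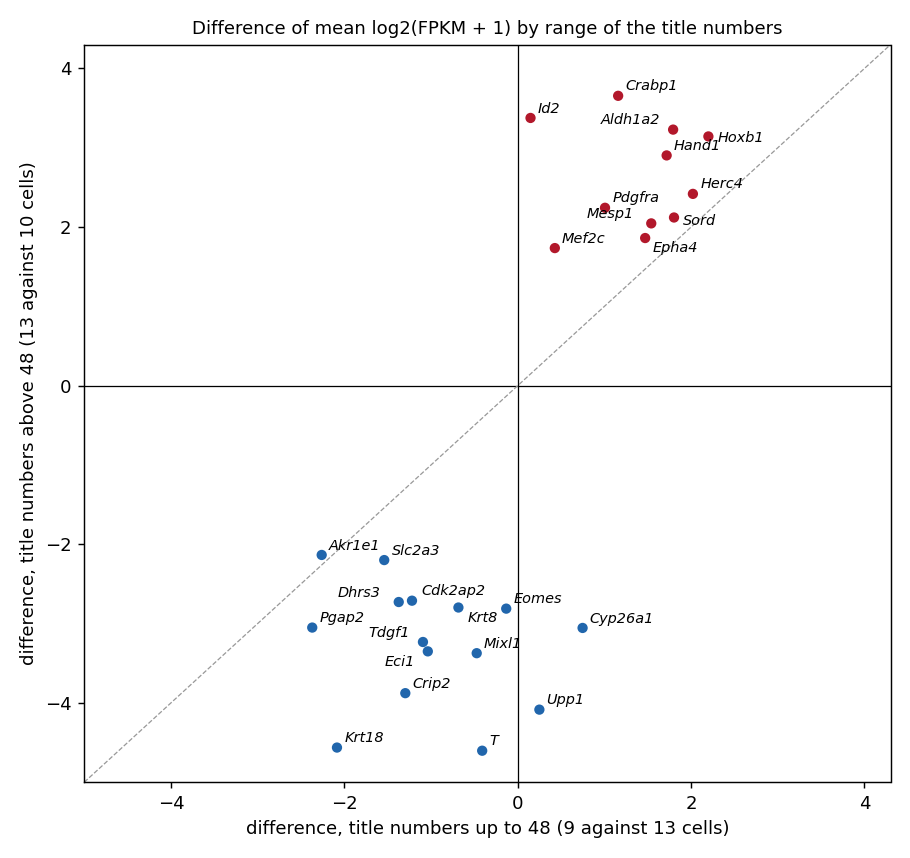
Difference of mean log2(FPKM + 1), Isl1-expressing minus without Isl1, for genes named in the text: horizontal axis title numbers up to 48 (9 against 13 cells), vertical axis above 48 (13 against 10 cells). Red genes were higher and blue genes lower over all cells; T (-0.41 and -4.60) and Upp1 (0.25 and -4.08) lie far from the dashed line of equal values, and Akr1e1 (-2.26 and -2.13) lies near it.

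Genes of an epithelial state mostly had negative differences. Of 19 genes, 14 were measured: 1 was called lower, 4 were lower by 1 or more, none was higher by 1, and 13 of 14 lay below 0, with a median of -0.68. Krt18, a keratin of simple epithelia and the gene with the largest negative difference, ran from 0 over a median of 0.164 to 503 FPKM in Isl1-expressing cells and from 0 over 81.2 to 601 FPKM without Isl1. It was detected in 8 of 22 (36.4%, interval 17.2 to 59.3) against 17 of 23 (73.9%, 51.6 to 89.8). The difference was -3.13, or 8.74-fold on this scale, with -2.08 and -4.56 at the low and high title numbers. Most Isl1-expressing cells were near 0 and most others were high, with 11 and 4 cells listed at 0.

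Krt8, the partner keratin of Krt18, was detected in 11 against 19 cells at medians of 2.27 and 55.3 FPKM, a difference of -1.67 with -0.68 and -2.80 by title number. Cldn6, a tight junction protein, was at -1.35 with 3 against 9 cells and at -0.25 and -2.58 by title number. Cdh1, or E-cadherin, was at -1.13 with 6 against 11 cells (-0.41 and -1.64 by title number), and Epcam at -0.93 with 5 against 11 (-1.24 and -0.28). Grhl2, a regulator of epithelial genes, was at 1 FPKM or more in 0 of 22 cells (exact interval 0 to 15.4%) and in 5 of 23. It reached the 5 cells needed to be measured through the side without Isl1 alone, so its direction came with its inclusion. Krt19 and Crb3, each in 1 against 4 cells, passed almost only through that side. These genes are counted among the 13 below 0. Summed over the list, the level was 4.75 to 1048 FPKM (median 41.3) in Isl1-expressing cells and 3.55 to 1181 FPKM (median 144.7) without Isl1. Mesenchymal genes were mostly not far from 0: of 20, 17 were measured, none was called, 11 lay above 0 and the median was 0.21, with Pdgfra as the member past 1. Vim (0.82), Snai1 (0.66) and Fn1 (0.29), genes of the mesenchymal cytoskeleton, transition and matrix, were detected in most cells of both sides or at equal shares. Snai1 was at 1.73 and 0.36 by title number and at -0.01 without the cells of over 50% short RNA.

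**Figure D4:**
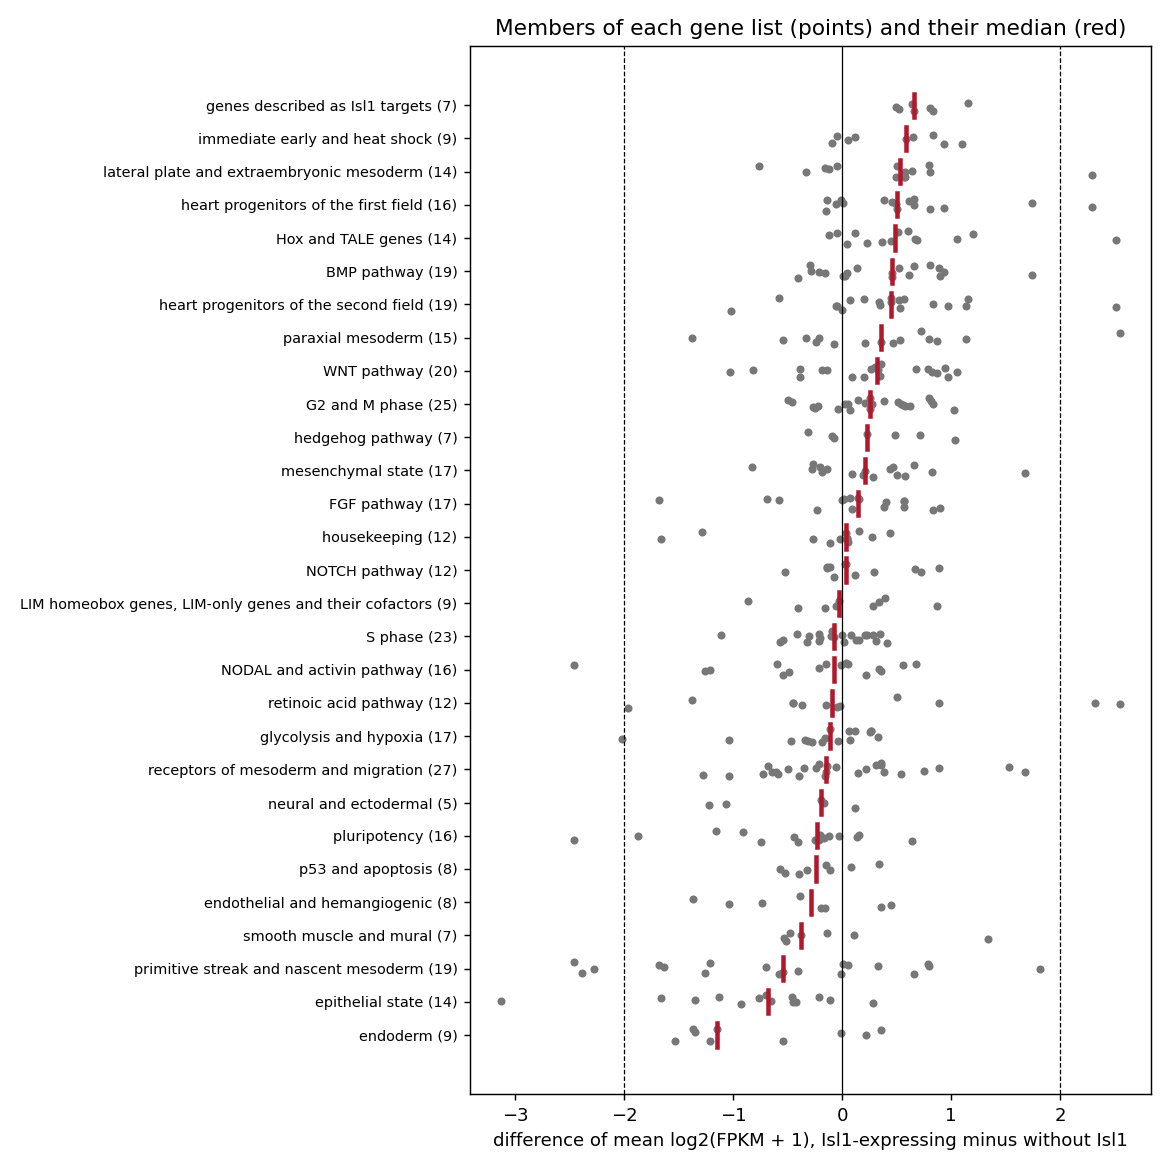
Difference for each measured member of the gene lists (grey points) and the list's median (red), with the number measured in parentheses and dashed lines at the size of a call. Endoderm (median -1.15), epithelial (-0.68) and streak lists (-0.55) lie lowest and the list of genes described as Isl1 targets (0.66) lies highest.

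Endoderm genes had the lowest median of the lists, -1.15, but from 9 measured of 21 members, with none called and 5 lower by 1 or more. They were Trh (-1.53, 15 against 17 cells), Hhex (-1.37, 4 against 11), Cldn6, Cer1 (-1.21, 6 against 10) and Foxa2 (-1.15, 2 against 9). By title number Trh was at -1.38 and -1.24, Hhex at -0.22 and -2.42, Cer1 at -1.29 and -1.45, and Foxa2 at -0.69 and -1.66. Of the other measured members, Apoe (21 cells on each side) and Cxcr4 (10 against 8) lay above 0, Gata6 was at -0.01 and Gsc (3 against 6) lay below 0. Hhex, Cldn6, Foxa2 and Gsc reached the 5 cells needed through the side without Isl1 alone, so their direction partly came with their inclusion. Cldn6 is also in the epithelial list, and Cer1 and Gsc in the streak list, so these lists share members. Foxa2 is a forkhead factor of definitive endoderm and axial mesoderm, Hhex marks anterior endoderm and blood vessel progenitors, and Cer1 is a secreted antagonist of Nodal and BMP. Summed over the list, the level was 6.13 to 1069 FPKM in Isl1-expressing cells and 4.57 to 3966 FPKM without Isl1. Sox17 reached 1 FPKM in 1 of the 45 cells, and Foxa1, Hnf4a, Afp and Pyy in none. The median was -0.26 with all genes above 0 in any cell and -0.23 at title numbers up to 48. The part of endoderm-like cells in the other differences was not tested.

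Pluripotency genes were scattered: of 19, 16 were measured, with Tdgf1 called lower, 3 lower by 1 or more, 13 below 0 and a median of -0.23. Nanog, a homeobox factor of pluripotent and early streak cells, was detected in 20 against 23 cells (medians 3.46 and 11.8 FPKM, difference -1.16), and Pou5f1, or Oct4, in 10 against 15 (-0.91). By title number Nanog was at -0.81 and -1.25, while Pou5f1 changed sign, at 0.20 and -1.51. Summed, the list was at 107.4 to 2674 FPKM against 40.7 to 5263 FPKM. For the endothelial and hemangiogenic list, 8 of 21 members were measured, none was called, 2 were lower by 1 or more and the median was -0.29, with summed levels of 0 to 589.6 against 0 to 1032 FPKM. Flt1, a VEGF receptor, was detected in 1 against 8 cells (-1.04, with -0.89 and -1.11 by title number). Etv2, the regulator of this lineage, was at 0.45 with 13 against 10 cells, but changed sign by title number, at -0.31 and 1.31, and was at 0.07 without the cells of over 50% short RNA. Cdh5 and Pecam1 did not reach 1 FPKM. Of 20 neural and ectodermal genes, 5 were measured, none called, and Otx2 was at -1.22 (8 against 14 cells, -1.11 and -1.31 by title number).

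Isl1 also marks motor and sensory neurons, whose genes were too rarely detected to be measured. Of 15 listed, 12 did not reach 1 FPKM in any cell, among them Lhx3, Olig2, Chat and Isl2, and none was detected in the 5 cells needed to be measured. Blood genes were nearly as sparse, with 2 of 15 measured and 9 never at 1 FPKM.

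Partners and described targets of Isl1 were examined as members of their own lists. Of 21 LIM homeobox genes, LIM-only genes and cofactors, 9 were measured, none was past 1 in either direction over all cells and the median was -0.03. Ldb1, the cofactor that joins LIM proteins into complexes, was at 0.28 (16 against 17 cells), and Ssbp3, which stabilises Ldb1, at -0.03 (22 against 23). Lhx1, a LIM homeobox gene of early mesoderm, was at -0.40 with 18 cells on each side, but changed sign by title number, at 0.79 and -1.54. Of 13 genes described as Isl1 targets, 7 were measured and all 7 lay above 0: Mef2c (1.16), Fgf10 (0.84), Bmp4 (0.81), Tbx20 (0.66), Tbx3 (0.64), Bmp7 (0.52) and Hand2 (0.49). None of these was called, Mef2c alone was past 1, and Ret, Smyd1, Phox2a and Onecut1 did not reach 1 FPKM. Shh, in 0 against 3 cells, and Myocd, in 2 against 2, were detected too rarely to be measured. The median over all genes was -0.01. Mef2c, Fgf10 and Bmp7 are also members of the second heart field list, and Bmp4, Tbx20 and Hand2 of the first, so these lists are not separate observations. By title number Bmp4 was at 1.22 and 0.20 and Hand2 at -0.02 and 0.96, so that of Hand2 changed sign.

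BMP genes also had a positive median, 0.46, over 19 measured of 23. None was called, Id2 was past 1, and Id1 (0.93) and Id3 (0.46), direct targets of BMP signalling, were detected in 22 cells on each side. By title number Id1 was at 0.66 and 1.40 and Id3 changed sign, at -0.22 and 1.11. Bmper, a secreted modulator of BMP, was at 0.90 with 11 against 7 cells (1.21 and 0.74 by title number), and Smad7, an inhibitory Smad, at 0.89 with 19 against 13. In the WNT list, 20 of 27 members were measured with a median of 0.32, Lef1 (a nuclear effector) at 1.06 and Sfrp1 (a secreted antagonist) at -1.03. By title number Lef1 was at 1.44 and 0.94, and Sfrp1 at -0.83 and -1.54. In the paraxial mesoderm list, 15 of 23 were measured with a median of 0.35, and Tbx6, the regulator of presomitic mesoderm, was at 0.21 with 6 against 5 cells. The lateral plate list had a median of 0.53 over 14 measured of 23, with Hand1 its called member.

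The remaining lists held no called gene beyond those named. The NODAL and activin list, with Tdgf1 as its called member, had a median of -0.08 over 16 measured of 18, and Fst, an antagonist of activin, was at -1.26 (9 against 17 cells, -0.84 and -1.66 by title number). The FGF list was at 0.14 (17 of 19 measured), NOTCH at 0.03 (12 of 18) and hedgehog at 0.23 (7 of 13). Immediate early and heat shock genes were at 0.59 (9 of 13), with Fos, a gene that responds quickly to stimuli and to handling of cells, at 1.10 (21 against 20 cells, 0.91 and 1.32 by title number). The part of cell handling in the other differences was not tested. Glycolysis genes were at -0.12 (17 of 18), p53 and apoptosis genes at -0.24 (8 of 10) and smooth muscle genes at -0.37 (7 of 10). Rgs5, a marker of mural cells in the last of these lists, went against its median, at 1.34 with 16 against 11 cells, with 1.65 and 0.90 by title number and 2.53 without the cells of over 50% short RNA.

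Of the remaining called genes, Slc2a3 alone is a member of a list. Crip2, a LIM-domain protein of heart and vessels outside the LIM list above, was detected in 5 against 16 cells (22.7%, interval 7.82 to 45.4, against 69.6%, 47.1 to 86.8). Its difference was -2.69, with -1.30 and -3.88 at the low and high title numbers. Pgap2, a gene of GPI-anchor processing, was detected in 8 against 17 cells at -2.57, with -2.37 and -3.05. Akr1e1, an aldo-keto reductase, was detected in 11 against 19 cells at -2.34, with -2.26 and -2.13. Pgap2 and Akr1e1 had thus a size of 2 or more in both ranges. Slc2a3, a glucose transporter and the called member of the glycolysis list, was detected in 9 against 17 cells at -2.02, with -1.54 and -2.20 by title number. Upp1, a uridine phosphorylase, was at -2.21 over all cells but at 0.25 and -4.08 at the low and high title numbers. Eci1, an enzyme of fatty acid oxidation, was detected in 10 against 22 cells at -2.08, with -1.04 and -3.35. Cdk2ap2 was detected in 11 against 19 at -2.07, with -1.22 and -2.71. Herc4, a ubiquitin ligase and the remaining gene called higher, was detected in 19 against 12 cells at 2.03, with 2.02 and 2.42 at the low and high title numbers. Herc4, Upp1, Eci1, Cdk2ap2 and Slc2a3 each fell below the call when single cells were left out.

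Genes of the cell cycle and housekeeping genes give a scale for these differences. The S phase list had a median of -0.08 with 23 of 23 measured, and the G2 and M list 0.26 with 25 of 25, with none called in either. The 12 housekeeping genes had a median of 0.04, but Hprt, a purine salvage enzyme, was at -1.66 (10 against 18 cells) and Sdha, a subunit of mitochondrial complex II, at -1.29. By title number Hprt was at -1.94 and -1.41, and Sdha at -1.75 and -0.85. A housekeeping gene can thus differ between the sides by about as much as Pdgfra or Krt8.

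Without the limits on Isl1, the gene most like it over all 48 cells was Sord, by Spearman rho over 8862 genes detected in at least 10 cells. Isl1 was listed at 0 in 20 of these cells, so the coefficient partly repeats the division into sides and is not a separate observation. Sord, or sorbitol dehydrogenase, had a rho of 0.59, and 0.48 and 0.68 at the low and high title numbers. It was detected in all 45 compared cells, from 2.33 over a median of 24.4 to 161.7 FPKM in Isl1-expressing cells and from 2.15 over 3.58 to 53.4 FPKM without Isl1, a difference of 1.92 with 1.8 and 2.12 by title number. Hoxb1 followed with 0.55 (0.40 and 0.79 at the low and high title numbers), then Senp6 with 0.53 (0.17 and 0.73), Rictor with 0.53 (0.43 and 0.53), Mef2c with 0.51 (0.17 and 0.60), Aldh1a2 with 0.51 (0.36 and 0.59) and Pdgfra with 0.51 (0.31 and 0.55). Senp6 is a SUMO protease and Rictor a subunit of the mTOR complex. These 7 reached 0.5 and 3 genes reached -0.5: Dcaf17 at -0.53, Ssbp1, a mitochondrial protein that binds single-stranded DNA, at -0.51, and Dhrs3 at -0.50. Dhrs3 met the 10 cells needed here through cells outside the Isl1-expressing side alone. All cells share 1 preparation as far as the labels say, so the coefficients are descriptions.

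Inside the 22 Isl1-expressing cells, the level of Isl1 went with some of the same genes. Mixl1 had a rho of -0.71 with Isl1: the 11 cells with Mixl1 held Isl1 at 12.9 to 100 FPKM (median 23.8) and the 11 cells lacking it at 30.8 to 153 FPKM (median 81.4). Mef2c had a rho of 0.56, with Isl1 at 30.8 to 153 FPKM (median 63.1) in the 11 cells with Mef2c and 12.9 to 137 FPKM (median 23.8) in the 11 without. Tdgf1 was at -0.53, Aldh1a2 at 0.38 and T at -0.37, while Krt18 was at 0.05, Hand1 at 0.06 and Mesp1 at -0.01. The Isl1 level also moved with the title number, with a median of 23.8 FPKM in 9 cells up to 48 and 63.1 FPKM in 13 cells above. The part of the title number in these coefficients was not tested.

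Combinations of genes within a cell were also counted. They were chosen after their genes' values were known. Hoxb1, Pdgfra and Epha4 were detected together in 18 of 22 Isl1-expressing cells (81.8%, interval 59.7 to 94.8) and 6 of 23 cells without Isl1 (26.1%, 10.2 to 48.4). Hand1, Aldh1a2 and Pdgfra were detected together in 12 of 22 (54.5%, 32.2 to 75.6) and 2 of 23 (8.70%, 1.07 to 28). All 3 were below 1 FPKM in 1 and 9 cells. In these counts 12 of the 22 Isl1-expressing cells held a lateral plate gene, a retinoic acid enzyme and a mesoderm receptor at once. Each gene of both combinations was by itself detected more often on this side. A higher joint share would follow from that alone, so these counts do not show a link within cells.

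The opposite combinations involved T and the keratins. T, Krt18 and Krt8 were detected together in 3 of 22 Isl1-expressing cells (13.6%, interval 2.91 to 34.9), in 11 of 23 without Isl1 (47.8%, 26.8 to 69.4) and in 3 of the 3 cells between the limits. Neither T nor Krt18 was detected in 11 of 22 (50%, 28.2 to 71.8) and 2 of 23. T without Hoxb1 was found in 0 of 22 Isl1-expressing cells (exact interval 0 to 15.4%) and in 9 of 23 without Isl1 (39.1%, 19.7 to 61.5). Krt18 without Pdgfra was found in 0 of 22 and 10 of 23, and T without Mesp1 in 0 of 22 and 8 of 23. The 7 Isl1-expressing cells with T thus all held Hoxb1 and Mesp1 as well, and the 8 with Krt18 all held Pdgfra. On this side, however, Hoxb1 was detected in 20 of 22 cells, Pdgfra in 19 and Mesp1 in 17. With shares this high, few or no cells with T or Krt18 would lack these genes without any link between them. The counts of 0 therefore do not show a link within cells.

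**Figure D5:**
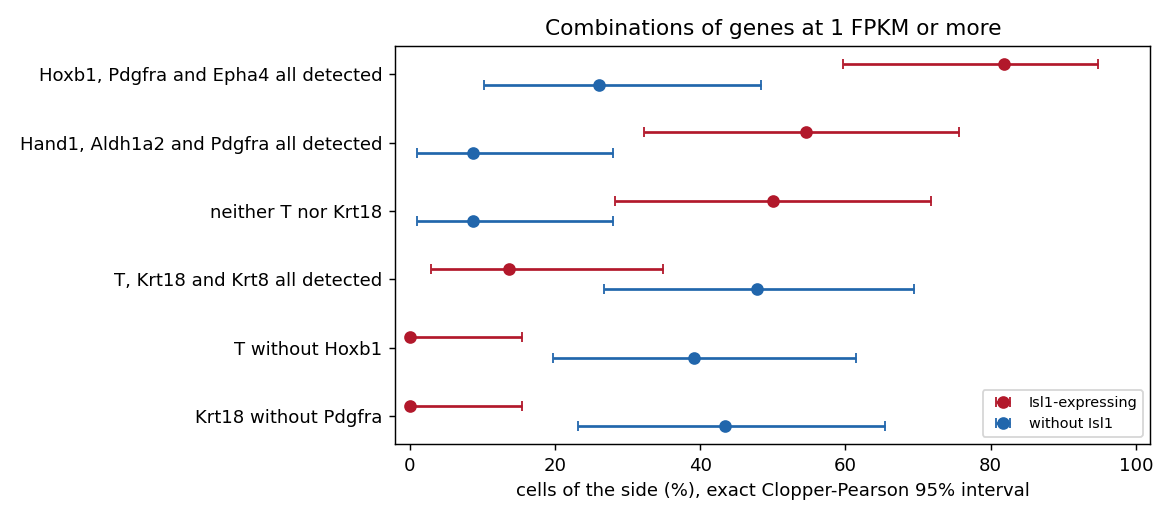
Share of cells in percent that hold each combination of genes at 1 FPKM or more, for 22 Isl1-expressing cells (red) and 23 cells without Isl1 (blue), with exact Clopper-Pearson 95% intervals. Hoxb1, Pdgfra and Epha4 were together in 81.8% and 26.1% of cells, and T without Hoxb1 in 0 and 39.1%.

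Without the cells of few detected genes, these counts were 16 of 20 and 6 of 18 for Hoxb1, Pdgfra and Epha4, 12 of 20 and 2 of 18 for Hand1, Aldh1a2 and Pdgfra, 3 of 20 and 7 of 18 for T, Krt18 and Krt8, and 0 of 20 and 5 of 18 for T without Hoxb1. By title number, T, Krt18 and Krt8 were together in 2 of 9 and 4 of 13 cells up to 48 and in 1 of 13 and 7 of 10 above 48. The Hoxb1, Pdgfra and Epha4 combination was in 8 of 9 and 4 of 13 up to 48 and in 10 of 13 and 2 of 10 above. The mesodermal combination was thus more frequent with Isl1 in both ranges, and the T and keratin combination was much closer between the sides at title numbers up to 48. Like the counts above, these do not show a link within cells.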

How the data were processed

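The 48 cells were measured by single-cell RNA-seq. The authors deposited 1 table with a column per cell, treated here as FPKM. The table names no unit, but per the submitters' processing notes Cufflinks 2.2.1.0 was used, which gives FPKM, and the values are not whole numbers. CASAVA 1.8.2 and TopHat 0.7 are listed there too, as is build mm10, without saying what each did. Which annotation and read filters were used is not stated in those notes or the labels. FPKM keeps no read counts, so depth is unknown and levels carry no interval.

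Rows of the 240 symbols found on several of 23746 rows were summed, giving 23284 symbols. Column names were matched to cell titles. Cells were put on a side by Isl1 alone, with none removed and no doublet caller run, since the table holds no counts. Values were log2(FPKM + 1), with a pseudocount of 1 FPKM. The 5 of 519 list symbols absent from the table were found under older symbols. Coordinates came from GENCODE M21 and sequences from RefSeq tables for GRCm38.p6.

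The labels give 1 group and no cultures, so no test was made. The computation was tested on simulated data. Members and the 32 gene lists were chosen with earlier results of these data known. Named genes were Isl1, Mesp1, Nkx2-5, the called genes other than short RNAs and predicted genes, per list the called members and up to 4 with the largest difference, the LIM and target lists, and the 10 highest and 5 lowest coefficients with Isl1. Further list members, such as Eomes, Foxa2, Epcam, Gata4, Kdr, Etv2 and the single Hox genes, were named after their values were seen, as were the combinations and the genes compared inside the expressing side. Some list members are not reported here by name. Alternatives varied the pseudocount (0.1), the filter (any cell, or 10 cells), the size of a call (1), the Isl1 limits (1, 30 and 0 FPKM), the scaling (each cell to 1000000 without short RNA rows), a regression on detected genes, the cells of few detected genes (under 5189, 3 median absolute deviations below the median), title numbers up to and above 48, and each cell left out. Leaving out cells with over 50% short RNA was added after the data were seen. Scripts ran in Python 3.11.15 with numpy 2.4.6, pandas 2.3.3, scipy 1.17.1 and matplotlib 3.10.9.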

Additional observations from a re-analysis of the deposited data

How the results depend on the processing

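Cells, not replicates, set the spread, and depth is unknown, so a gene not detected in a cell may still be expressed there. The count of genes called higher was 8 and of genes called lower 11. With a pseudocount of 0.1 they were 99 and 115, at a size of 1 they were 238 and 269, at title numbers up to 48 they were 37 and 29, above 48 they were 81 and 66, and without cells of over 50% short RNA 13 and 18. The higher count was 5 without the cells of few detected genes. The lower count was 7 with Isl1 at 1 FPKM or more, 30 at 30 FPKM or more, and 19 after rescaling. Leaving out each cell gave 7 to 12 higher and 7 to 16 lower, the 7 lower without the cell with title number 87. Of the 16 called genes that are not short RNAs, 16 kept the call above title number 48, but only 5 up to 48, where 10 were smaller and Upp1 reversed to 0.25. Without the cells of few detected genes, 9 kept it and 7 were smaller. In every leave-one-out 11 kept it.

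The medians of 4 lists, chosen after their values were seen, were followed, with a move of over 1.5 times reported. For the second heart field (0.45) the median was 0.99 above 48. For the streak (-0.55) it was -0.90 with a pseudocount of 0.1, 0.041 up to 48, which is reversed, and -1.43 above 48. For endoderm (-1.15) it was -0.26 with all genes above 0 in any cell, -0.23 up to 48 and -0.61 without cells of over 50% short RNA. For epithelial genes (-0.68) it was -1.20 with a pseudocount of 0.1, -0.43 up to 48 and -1.05 above 48. Leaving out each cell gave 0.35 to 0.52, -0.60 to -0.37, -1.34 to -0.87 and -0.77 to -0.56 for these lists. The number of genes with a coefficient of 0.5 or more with Isl1 (7) was 2 with Pearson r, 47 up to 48 and 135 above 48. The cause of these moves was not tested. The settings by title number compare fewer cells, and the cells of few detected genes all have title numbers above 48. No paired analysis was possible because the labels give 1 group and no replicate numbers across groups.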
